A study of Mus musculus with 4 samples.

Results

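Cathepsins are the proteases of the lysosome, the acidic compartment where macrophages and microglia break down engulfed myelin, dead cells and proteins. The 9 genes described here are Ctsa, Ctsb, Ctsc, Ctsd, Ctsh, Ctsk, Ctsl, Ctss and Ctsz, taken by symbol out of 31053 genes, and all 9 were found. The cells were CD45high leukocytes sorted from the ischemic hemisphere of C57/BL6 mice after tMCAO (transient middle cerebral artery occlusion), which models stroke by closing and later reopening an artery of the brain. There were 2 libraries from day 14 after tMCAO and 2 from day 5, all made with the 10x Single Cell 3′ v2 chemistry, and every group carried the injury, since no sham or uninjured hemisphere is among them. The labels do not say how many animals a library holds or whether libraries came from separate animals, so p-values measure only the spread between these libraries, which may be technical. CD45 is low on resting microglia, so the sort decides which microglia were seen, and shares of cell types are not compared between days.

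The family holds several kinds of enzyme. Ctsb, Ctsc, Ctsh, Ctsk, Ctsl, Ctss and Ctsz encode cysteine proteases, Ctsd an aspartic protease and Ctsa a serine carboxypeptidase that also stabilises other lysosomal enzymes. In antigen-presenting cells cathepsin S, and in some cell types cathepsin L, trims the invariant chain (Cd74) from MHC class II molecules, and cathepsin C activates granule serine proteases such as granzymes and neutrophil elastase. Cystatins (Cst3, Cst7, Cstb) inhibit the cysteine cathepsins, and legumain (Lgmn) is an asparagine-specific lysosomal protease that processes several of them.

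The members lie apart in the mouse genome, with coordinates from GENCODE vM21 on GRCm38, the assembly the submitters' processing notes name. Ctsa (ENSMUSG00000017760) spans chr2:164832873-164841032 on the plus strand and Ctsz (ENSMUSG00000016256) chr2:174427493-174439039 on the minus strand. Ctsk (ENSMUSG00000028111) at chr3:95499256-95509362 and Ctss (ENSMUSG00000038642) at chr3:95526786-95556403 are close neighbours on the plus strand. Ctsc (ENSMUSG00000030560) spans chr7:88278085-88310888 on the plus strand and Ctsd (ENSMUSG00000007891) chr7:142375911-142388038 on the minus strand. Ctsh (ENSMUSG00000032359) spans chr9:90054152-90076089 on the plus strand, Ctsl (ENSMUSG00000021477) chr13:64359337-64370890 on the minus strand and Ctsb (ENSMUSG00000021939) chr14:63122462-63145923 on the plus strand. Reads from 3′ libraries fall near transcript ends, so the last 400 bases of each coding transcript were compared with all other genes in words of 60 bases. No word was shared for 8 of the 9 members and 0.587% of words were shared for Ctsc. Ctsd overlaps the annotated gene Gm49369 on the same strand, which is also counted in these files, so reads that fit both could have been left out of Ctsd.

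Promoter windows, from 250 bases before to 50 after an annotated start, were found in RefSeq (GRCm38.p6) for 7 of the 9 members, in 8 windows; Ctsb and Ctsh had no entry. Each was searched on both strands for TCACGTGA, the E-box form bound by TFEB and its relatives, which are known activators of lysosomal genes, for its core CACGTG, and for GAGGAAGT, a form of the site of PU.1, a factor that specifies macrophages. TCACGTGA, which contains CACGTG, stands in 0.974% of 32851 promoter windows, CACGTG in 7.15% and GAGGAAGT in 3.20%. TCACGTGA was found in the Ctsd window at chr7:142387778-142388077 and in the Ctsa window at chr2:164833523-164833822. Both windows belong to a start inside the gene. The Ctsd window also covers the annotated gene start at 142388038. The other Ctsa window, at chr2:164832622-164832921, covers the annotated gene start at 164832873 and held none of these motifs. CACGTG alone was found in the window of Ctsl, and GAGGAAGT in those of Ctsc and Ctss. The Ctsl window, at chr13:64370471-64370770, lies inside the gene and does not reach its annotated start at 64370890. The 4 windows below, shown with the first 30 bases after the start, are those that hold TCACGTGA or GAGGAAGT. A link between these motifs and any change of level was not tested. Capitals mark the motifs; a match is a description of these letters, not a bound site.
Ctsd, chr7:142387798-142388077, minus strand: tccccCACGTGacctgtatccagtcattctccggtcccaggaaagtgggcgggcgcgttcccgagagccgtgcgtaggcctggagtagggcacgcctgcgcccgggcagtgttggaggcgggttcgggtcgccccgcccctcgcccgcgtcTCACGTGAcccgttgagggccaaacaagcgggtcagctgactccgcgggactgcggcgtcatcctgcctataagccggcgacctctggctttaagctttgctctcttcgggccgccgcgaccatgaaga
Ctsa, chr2:164833523-164833802, plus strand: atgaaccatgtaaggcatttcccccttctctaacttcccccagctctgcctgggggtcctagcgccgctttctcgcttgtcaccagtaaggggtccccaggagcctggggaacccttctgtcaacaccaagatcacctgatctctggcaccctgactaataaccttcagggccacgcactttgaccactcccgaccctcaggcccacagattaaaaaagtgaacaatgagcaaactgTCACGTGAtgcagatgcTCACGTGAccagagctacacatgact
Ctsc, chr7:88277835-88278114, plus strand: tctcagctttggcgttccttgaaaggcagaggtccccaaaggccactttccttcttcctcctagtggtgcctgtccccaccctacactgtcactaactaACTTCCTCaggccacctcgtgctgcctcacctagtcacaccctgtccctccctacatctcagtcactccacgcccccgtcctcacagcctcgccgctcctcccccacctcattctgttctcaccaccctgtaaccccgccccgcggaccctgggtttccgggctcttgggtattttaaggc
Ctss, chr3:95526536-95526815, plus strand: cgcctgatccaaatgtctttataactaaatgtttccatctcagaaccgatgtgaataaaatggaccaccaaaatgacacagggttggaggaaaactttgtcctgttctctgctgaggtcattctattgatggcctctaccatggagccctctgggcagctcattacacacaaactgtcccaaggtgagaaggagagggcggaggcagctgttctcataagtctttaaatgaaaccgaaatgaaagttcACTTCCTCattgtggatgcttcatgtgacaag

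Cells were gated by UMIs (unique molecular identifiers, each standing for 1 captured RNA molecule) of marker genes, none of them a cathepsin, cystatin, legumain, MHC class II or lysosomal gene. Of 10925 barcodes, 6965 fell into 1 of 15 gated populations, 4435 of them into the 11 myeloid ones, 3858 into none and 18 into several. Total UMIs were 9288054 and 10759904 for day 14 and 10730791 and 13610119 for day 5, and pairs of libraries shared 5 to 16 cell barcodes. Between 62.3% and 64.6% of gated cells of day 14 and between 47.2% and 50.4% of those of day 5 had a UMI of Ptprc, the gene of CD45. At the cut itself lay 102 of 467 Ms4a7-positive macrophages, 91 of 807 Ly6c2-positive monocytes and 74 of 465 cDC2. Each gate held its defining gene, for example 1493 to 2370 CPM of P2ry12 in P2ry12-high microglia and 989 to 1214 of Ms4a7 in Ms4a7-positive macrophages. Some defining genes differed between days: Ly6c2 stood at 4611 and 4563 in Ly6c2-positive monocytes on day 14, against 1926 and 1955 on day 5. Spp1 in Spp1 Gpnmb phagocytes stood at 30976 and 38552 on day 14, against 16522 and 20438 on day 5. A level is given in CPM, the UMIs of a gene in a population of 1 library, scaled to a total of 1000000 UMIs; each molecule is counted once at its 3′ end, so no length correction applies. Levels are relative to a cell's other RNA, so a lower level and more of other RNA cannot be told apart.

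The 9 cathepsins together took their greatest share of RNA in microglia and phagocytes. They made up 4.64% ± 0.21 of all UMIs in Cd5l-positive microglia (SD, n = 2 libraries of 20 or more cells), 4.11% ± 0.49 in Spp1 Gpnmb phagocytes (n = 4) and 3.87% ± 0.12 in P2ry12-high microglia (n = 3). Ms4a7-positive macrophages, which carry a marker of monocyte-derived and border macrophages, had 2.31% ± 0.35 (n = 4) and border-associated macrophages 2.01% ± 0.05 (n = 2). Ly6c2-positive monocytes, the recently recruited cells, had 1.06% ± 0.16 (n = 4). Dendritic subsets ranged between 0.46% ± 0.13 in cDC1 and 0.97% ± 0.07 in Epcam-positive cells. T, NK and B cells had 0.32%, 0.25% and 0.32%, a level that free RNA from lysed cells can also give. Cells in no gate had 1.40% to 1.69% on day 14 and 2.49% to 2.64% on day 5.

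**Figure D1:**
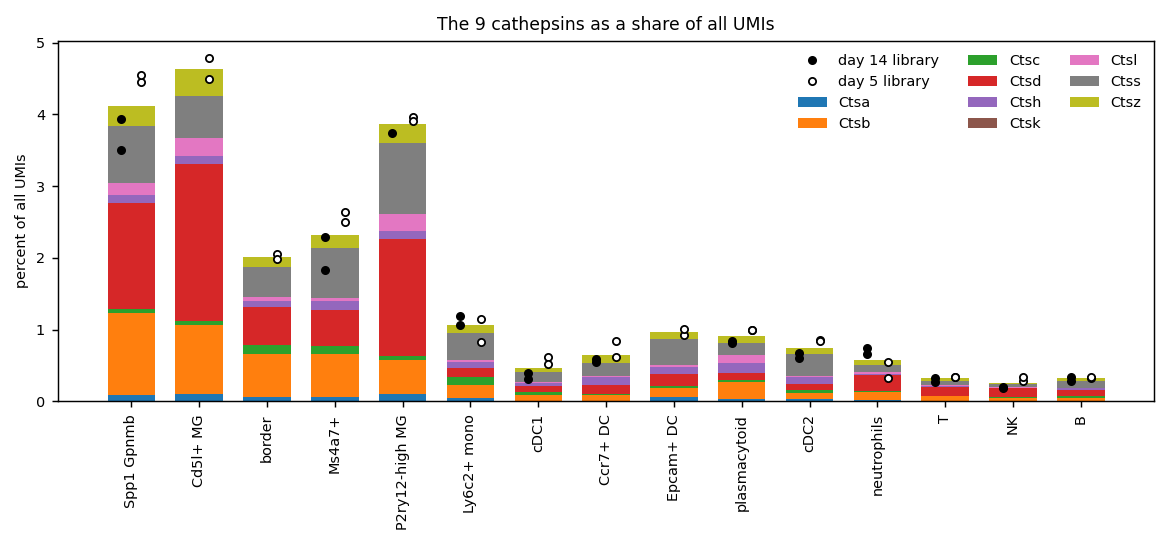
Share of all UMIs taken by the 9 cathepsins, in percent, by gated population (MG, microglia; mono, monocytes; DC, dendritic cells). Bars are means over libraries of 20 or more cells, divided by gene; points are single libraries, with day 14 left of day 5. Cd5l-positive microglia reach 4.64% and NK cells 0.25%.

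**Figure D2:**
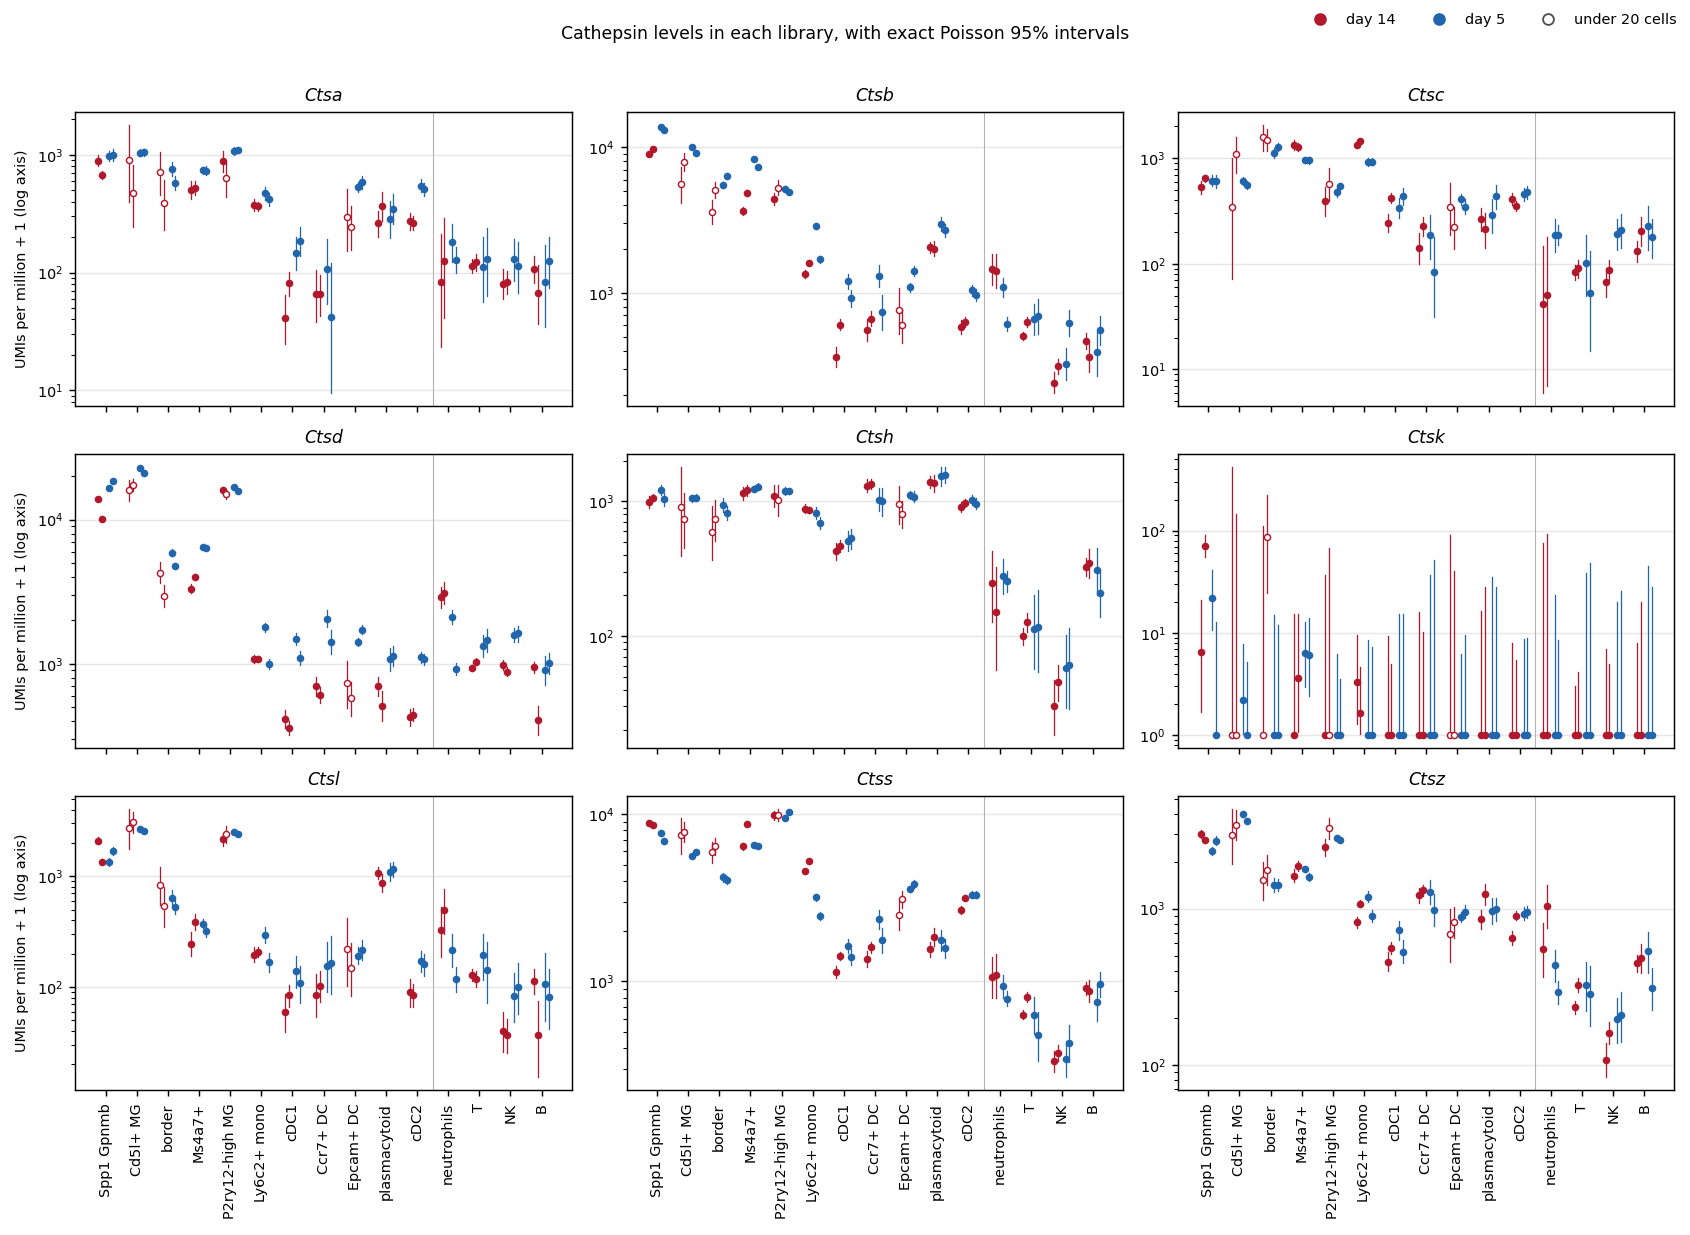
Level of each cathepsin in every library, in CPM plus 1 on a log axis, by gated population, with exact Poisson 95% intervals that cover counting error only. Day 14 libraries stand left of day 5 libraries and open points have under 20 cells; Ctsk is near 0 except in Spp1 Gpnmb phagocytes and 1 library of border-associated macrophages.

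Spp1 Gpnmb phagocytes and P2ry12-high microglia differed most in Ctsb. Spp1 Gpnmb phagocytes, cells rich in osteopontin and lipid-handling genes, held 9047, 9769, 13869 and 13128 CPM of Ctsb in day 14 replicates 1 and 2 and day 5 replicates 1 and 2, and P2ry12-high microglia, the homeostatic state, held 4395, 5287, 5129 and 4918. All libraries of phagocytes lay above all libraries of P2ry12-high microglia. Over the 3 libraries with 20 or more cells of both, Ctsb was 2.87-fold higher in phagocytes (log2 fold change 1.52 ± 0.15 SE, edgeR quasi-likelihood adjusted p = 1.5e-07). Ctsc was higher by 0.51 ± 0.17 (edgeR adjusted p = 0.021), a call lost without day 5 replicate 1 (0.47, adjusted p = 0.0985) or day 5 replicate 2 (0.61, adjusted p = 0.052). These 2 of 8 members tested stand beside 37.2% of all 4835 genes called in that comparison. Ctsa, Ctsd, Ctsh, Ctsl, Ctss and Ctsz had log2 differences between -0.28 and 0.21, none of which passed.

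The phagocyte gate held cells with and without microglial genes, and these differed in cathepsins. In day 14 replicates 1 and 2 and day 5 replicates 1 and 2, 44, 39, 43 and 50 cells had microglial markers. Without them were 25, 98, 32 and 29 cells, and the rest of the gate fell in neither group. The fold of Ctsb given above is thus not one between microglial states alone. Those with microglial markers held 19210, 20012, 21846 and 22529 CPM of Ctsd in day 14 replicates 1 and 2 and day 5 replicates 1 and 2, and those without held 9329, 8235, 13088 and 16021. Ctsl, a broad-acting lysosomal endopeptidase, stood at 3370, 3671, 2755 and 3022 in cells with markers, against 1028, 857, 852 and 1026 in cells without. Neither gene's values overlapped between these groups. Cells with markers exceeded those without in Ctsl (log2 1.81 ± 0.17, edgeR adjusted p = 1.6e-06), Ctsd (0.92 ± 0.19, adjusted p = 0.0025) and Ctsz (0.81 ± 0.16, adjusted p = 0.0015), 3 of 8 members against 23.0% of genes called. Against P2ry12-high microglia, the phagocytes with microglial markers were higher in Ctsb (1.06 ± 0.12), Ctsc (0.51 ± 0.17), Ctsd (0.44 ± 0.11) and Ctsz (0.46 ± 0.13) and lower in Ctss (-0.60 ± 0.16), 5 of 8 against 34.0% of genes. Of these, Ctsc, Ctsd, Ctss and Ctsz lost their call without day 5 replicate 2, with log2 values of 0.67, 0.40, -0.45 and 0.47, and Ctsc also without day 5 replicate 1 (0.48).

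Cd5l-positive microglia were compared in the day 5 libraries, since day 14 held only 4 and 8 such cells. They held 10011 and 9074 CPM of Ctsb, against 5129 and 4918 in P2ry12-high microglia, and 22861 and 20986 of Ctsd, against 16819 and 15908. Ctss, the protease of invariant chain trimming, went the other way, with 5607 and 5937 in Cd5l-positive cells and 9539 and 10248 in P2ry12-high cells. By edgeR, 5 members were higher in Cd5l-positive cells, led by Ctsb (log2 1.14 ± 0.11, adjusted p = 1.5e-22) and Ctsz (0.67 ± 0.11, adjusted p = 3.5e-09), with Ctsd at 0.63 ± 0.12, Ctsc at 0.39 ± 0.11 and Ctsl at 0.31 ± 0.10. Ctss was lower (-0.56 ± 0.11, adjusted p = 2.9e-06), while Ctsa (0.16 ± 0.10) and Ctsh (0.04 ± 0.10) did not pass. These 6 of 8 stand beside 39.4% of genes called. Those few cells of day 14 held 5574 and 7896 of Ctsb.

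Border-associated macrophages, the resident macrophages of meninges and perivascular spaces, had a different profile. In the day 5 libraries they held 1125 and 1276 CPM of Ctsc, against 477 and 546 in P2ry12-high microglia. Ctsl stood at 642 and 529, against 2528 and 2397, Ctsd at 5902 and 4761, against 16819 and 15908, and Ctss at 4192 and 4061, against 9539 and 10248. Ctsc was the 1 member higher in border-associated macrophages (log2 1.21 ± 0.11, edgeR adjusted p = 2.7e-08). Ctsl (-2.10 ± 0.12), Ctsd (-1.65 ± 0.10), Ctss (-1.28 ± 0.10), Ctsz (-0.996 ± 0.10), Ctsa (-0.74 ± 0.12) and Ctsh (-0.47 ± 0.11) were lower and Ctsb (0.21 ± 0.10) did not pass. So 7 of 8 were called, against 26.5% of genes.

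Ms4a7-positive macrophages were likewise higher in Ctsc and lower in Ctsl than P2ry12-high microglia. Ctsc stood at 1347, 1291, 958 and 957 in day 14 replicates 1 and 2 and day 5 replicates 1 and 2 of Ms4a7-positive macrophages, and at 397, 575, 477 and 546 in P2ry12-high microglia. Ctsl stood at 245, 385, 373 and 322, against 2159, 2392, 2528 and 2397, with no overlap. Over 3 libraries, Ms4a7-positive macrophages were higher in Ctsc (log2 1.15 ± 0.15, edgeR adjusted p = 1.5e-07) and Ctsb (0.41 ± 0.15), and lower in Ctsl (-2.84 ± 0.15), Ctsd (-1.60 ± 0.15), Ctsz (-0.63 ± 0.13), Ctsa (-0.56 ± 0.14) and Ctss (-0.55 ± 0.13). The 7 calls of 8 stand beside 37.5% of genes called. Those of Ctsa (-0.64), Ctsb (0.20) and Ctss (-0.60) were lost without day 5 replicate 1, and that of Ctsb also without day 5 replicate 2 (0.27). Set against Ms4a7-positive macrophages in the day 5 libraries, border-associated macrophages were higher in Ctsl (0.72 ± 0.15) and lower in Ctss (-0.68 ± 0.13), Ctsh (-0.56 ± 0.14) and Ctsb (-0.42 ± 0.13), 4 of 8 against 8.45% of genes.

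Ms4a7-positive macrophages exceeded Ly6c2-positive monocytes in 7 of the 8 members tested. Ctsd stood at 3322, 3983, 6425 and 6306 CPM in day 14 replicates 1 and 2 and day 5 replicates 1 and 2 of Ms4a7-positive macrophages, against 1082, 1083, 1785 and 1002 in monocytes. Ctsb stood at 3641, 4863, 8289 and 7319, against 1347, 1608, 2880 and 1694. All macrophage values exceeded all monocyte values for both genes. Macrophages were higher in Ctsd (log2 2.08 ± 0.16, edgeR adjusted p = 2.6e-06), Ctsb (1.75 ± 0.13), Ctss (1.00 ± 0.14), Ctsz (0.88 ± 0.10), Ctsl (0.72 ± 0.15), Ctsa (0.70 ± 0.12) and Ctsh (0.68 ± 0.12), and the 7 calls of 8 stand beside 14.7% of genes. Ctsc, the activator of granule proteases, differed by 0.07 ± 0.10 and did not pass. Each of the 7 calls held with any 1 library left out.

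Among dendritic subsets Ctsa, Ctss and Ctsl set the types apart. cDC1 (conventional dendritic cells that cross-present antigen) held 1139, 1427, 1632 and 1402 CPM of Ctss in day 14 replicates 1 and 2 and day 5 replicates 1 and 2, and cDC2 (Cd209a-positive conventional dendritic cells) 2676, 3169, 3293 and 3304. Ctsh stood at 426, 466, 507 and 530 in cDC1 and at 908, 975, 1029.9 and 963 in cDC2. cDC1 were lower than cDC2 in Ctsa (log2 -1.80 ± 0.15), Ctss (-1.09 ± 0.08, edgeR adjusted p = 9.8e-16), Ctsh (-0.95 ± 0.09) and Ctsz (-0.53 ± 0.10), 4 of 8 against 26.5% of genes, and none was higher. Each of these 4 calls held with any 1 library left out.

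Ccr7-positive dendritic cells, the mature migratory state, were lower than cDC2 in Ctsa (log2 -2.19 ± 0.23), Ctsc (-1.17 ± 0.22) and Ctss (-0.74 ± 0.10). They were higher in Ctsd (0.72 ± 0.13), Ctsz (0.61 ± 0.14) and Ctsh (0.39 ± 0.14), so 6 of 8 were called by edgeR, against 42.4% of genes. UMIs of the macrophage genes C1qa, C1qb and C1qc, which stand here for free RNA, were also higher in Ccr7-positive cells in 3 of the 4 libraries, at 988, 1179, 2519 and 1765 CPM against 819, 650.5, 1635 and 1875 in cDC2. Per C1q UMI, Ctsd stood at 0.706, 0.517, 0.815 and 0.806 in Ccr7-positive cells and at 0.517, 0.678, 0.679 and 0.573 in cDC2. T cells held 0.55 to 0.76, below both day 5 values of Ccr7-positive cells. The part of free RNA in this Ctsd call was not tested. Ctsh stood at 1310.3, 1352, 1031 and 999 in Ccr7-positive cells in the order of libraries used above, and its call was lost without day 14 replicate 1 (0.28) or day 14 replicate 2 (0.30). Epcam-positive dendritic cells, tested on day 5 only, were higher than cDC2 in Ctsd (0.56 ± 0.08), Ctsb (0.35 ± 0.09) and Ctss (0.21 ± 0.07), 3 of 8 against 5.09% of genes. C1q was also higher in Epcam-positive cells, at 2089 and 3064 CPM against 1635 and 1875 in cDC2. Per C1q UMI none of the 3 was higher: Ctsd stood at 0.680 and 0.561 in Epcam-positive cells, against 0.679 and 0.573 in cDC2, Ctsb at 0.523 and 0.460, against 0.638 and 0.516, and Ctss at 1.71 and 1.25, against 2.01 and 1.76. The part of free RNA in these 3 calls was not tested.

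Plasmacytoid dendritic cells, the interferon-producing type, stood apart in Ctsl and Ctsb. Ctsl was at 1068, 868, 1102 and 1164 CPM in day 14 replicates 1 and 2 and day 5 replicates 1 and 2, against 88, 83, 169.9 and 159 in cDC2. Ctsb was at 2056, 2006, 2971 and 2691, against 582, 630.2, 1042 and 967. The groups did not overlap in either gene. Ctsl was higher by log2 2.90 ± 0.16 (edgeR adjusted p = 3.2e-11), Ctsb by 1.40 ± 0.10 and Ctsh by 0.38 ± 0.10, while Ctss (-1.09 ± 0.09) and Ctsc (-0.73 ± 0.15) were lower, 5 of 8 against 30.9% of genes. These 5 calls held with any 1 library left out.

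**Figure D3:**
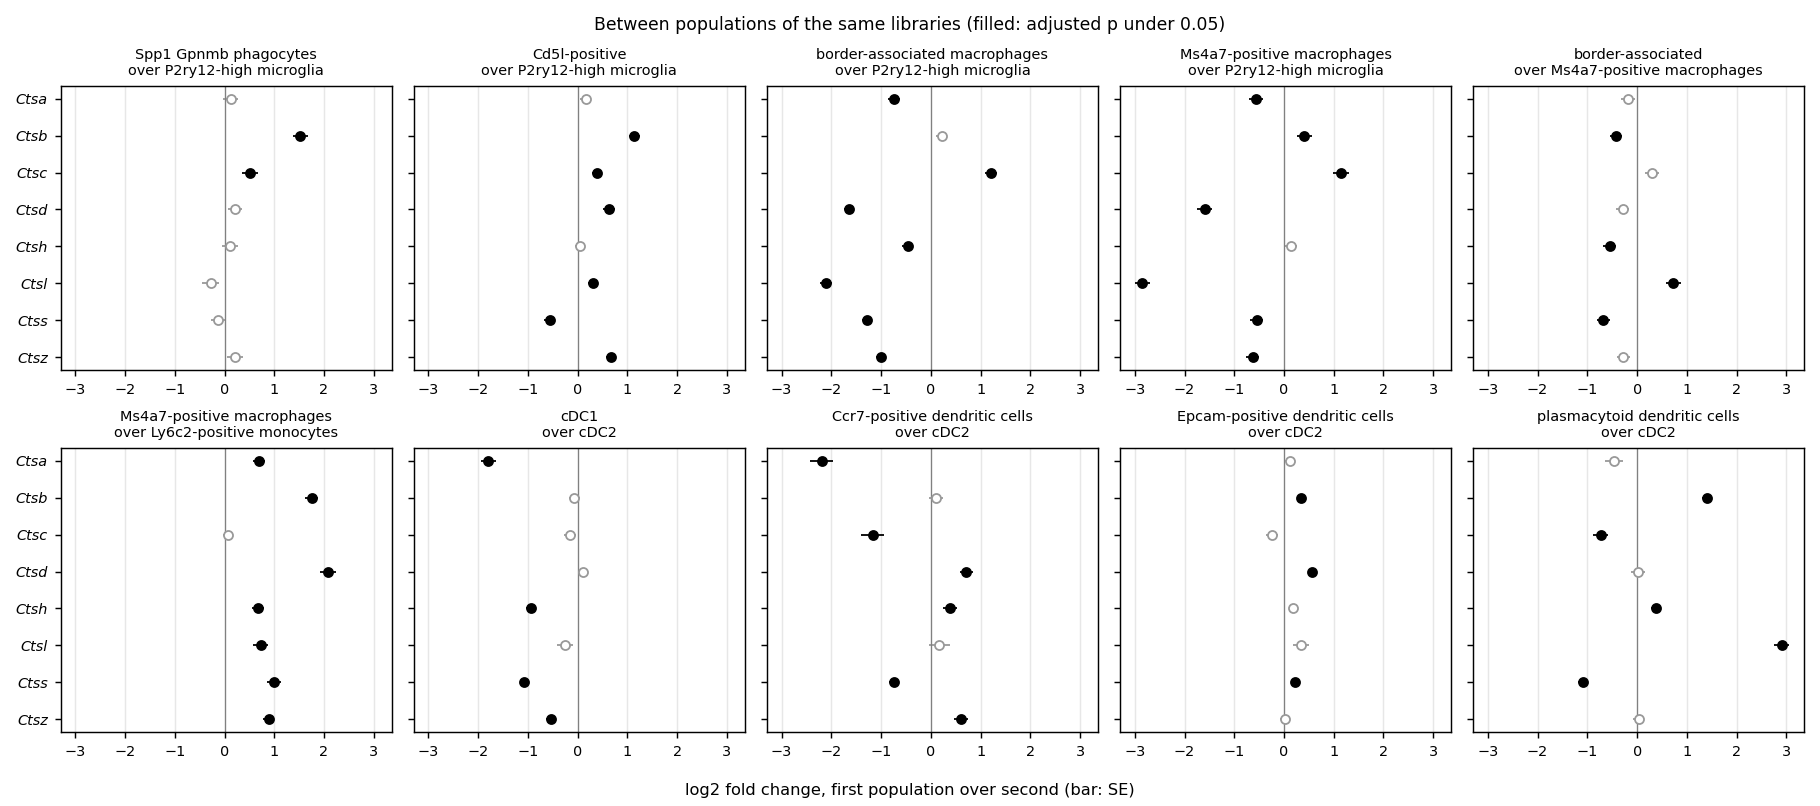
Log2 fold change of 8 cathepsins between populations of the same libraries, first population over second, with SE bars; filled points have an edgeR adjusted p under 0.05. Ctsl spans the widest range, with 2.90 in plasmacytoid dendritic cells over cDC2 and -2.84 in Ms4a7-positive macrophages over P2ry12-high microglia.

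In Ms4a7-positive macrophages Ctsb and Ctsd fell on day 14 and Ctsc rose. Ctsb stood at 3641 and 4863 CPM on day 14, against 8289 and 7319 on day 5, and Ctsd at 3322 and 3983, against 6425 and 6306. Ctsc moved the other way, with 1347 and 1291 on day 14, against 958 and 957 on day 5. For all 3 genes the day 14 libraries lay apart from the day 5 libraries. By edgeR, Ctsb fell by 0.84 on the log2 scale (SE 0.14, adjusted p = 0.002), Ctsd fell by 0.76 (SE 0.12, adjusted p = 0.0016), Ctsa fell by 0.47 (SE 0.13, adjusted p = 0.048) and Ctsc rose by 0.50 (SE 0.12, adjusted p = 0.025). These 4 of 8 stand beside 8.23% of 5481 genes called. The calls of Ctsa and Ctsc were lost without any 1 library, with log2 values between -0.53 and -0.45 for Ctsa and between 0.44 and 0.54 for Ctsc. The summed microglial markers of these cells were also lower on day 14, at 300 and 416 CPM against 733 and 803 on day 5, and 6 of 7 markers had a UMI on day 14 against 7 of 7; their part in the result was not tested. Lymphocyte markers summed to 42.8 and 20.7 CPM on day 14, against 2.68 and 3.82 on day 5. C1q fell too, at 7052 and 6551 CPM on day 14, against 9781 and 9877 on day 5. Per C1q UMI the days overlapped in Ctsb, at 0.516 and 0.742 on day 14, against 0.847 and 0.741 on day 5, and also in Ctsa. They stayed apart in Ctsd (0.471 and 0.608, against 0.657 and 0.638) and Ctsc (0.191 and 0.197, against 0.0979 and 0.0969). The link between these falls was not tested. DESeq2 called 2 of the 8 members here, both lower.

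Ly6c2-positive monocytes instead rose in Ctss and Ctsc. Ctss stood at 4560.5 and 5271 CPM on day 14, against 3186 and 2461 on day 5, and Ctsc at 1338 and 1457, against 919.7 and 930.1. The days did not overlap in either gene. Ctss rose by 0.94 ± 0.16 (edgeR adjusted p = 0.0046) and Ctsc by 0.73 ± 0.14 (adjusted p = 0.0086), 2 of 8 members beside 6.71% of genes, and both calls held with any 1 library left out. Ctsb stood at 1347 and 1608 on day 14 and at 2880.4 and 1694 on day 5 and did not pass (-0.49 ± 0.22). It passed without day 5 replicate 2 (-0.84, adjusted p = 0.000234) or day 14 replicate 2 (-0.63, adjusted p = 0.0449). Neutrophil markers in these monocytes summed to 634 CPM in day 5 replicate 2, with 381 and 238.5 in day 14 replicates 1 and 2 and 194 in day 5 replicate 1. The genes that defined the gate moved with the calls, Ly6c2 as given above and Ccr2 at 1523 and 1440.4 CPM on day 14, against 772 and 884 on day 5. Lymphocyte markers summed to 36.3 and 21.9 on day 14, against 2.02 and 3.4 on day 5. The gate thus held cells of different marker levels on the 2 days, and the part of these markers in the result was not tested.

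The day effect on Ctss was lower in Ms4a7-positive macrophages than in monocytes by log2 -0.69 ± 0.13 (edgeR adjusted p = 0.011), 1 of 8 members beside 0.961% of genes; DESeq2 called 0. Set against Ms4a7-positive macrophages, cDC2 had a lower day effect on Ctsc (-0.73 ± 0.14, adjusted p = 0.040), 1 of 8 beside 0.707% of genes. That call was lost when day 14 replicate 2 (-0.69, adjusted p = 0.160) was left out, and likewise for either day 5 library (replicate 1, -0.73, adjusted p = 0.0715; replicate 2, -0.71, adjusted p = 0.0507). With the 10-cell minimum that P2ry12-high microglia need, no member differed in day effect between Ms4a7-positive macrophages and these microglia, beside 0.817% of genes, and the median gene there was shifted by 0.14. Of these, Ctsb differed by -0.71 ± 0.22 (edgeR adjusted p = 0.088), Ctsb, Ctsc and Ctsd had an unadjusted p under 0.05, and DESeq2 called 0.

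In P2ry12-high microglia and in all Spp1 Gpnmb phagocytes together no member passed. P2ry12-high microglia, with 36 and 15 cells on day 14, held 16079 and 14997 CPM of Ctsd on day 14, against 16819 and 15908 on day 5, and 9884 and 9890.1 of Ctss, against 9539 and 10248. By edgeR with a minimum of 10 cells 0 of 8 members were called beside 1.06% of genes, and the lowest unadjusted p was 0.033, for Ctsa at -0.44 ± 0.20. Ctsa passed without day 14 replicate 1 (-0.94, adjusted p = 0.0274). In all Spp1 Gpnmb phagocytes 0 of 8 were called beside 5.81% of genes, with log2 values between -0.48 for Ctsb and Ctsd and 0.29 for Ctss; DESeq2 called 0 in both populations, and 0 of the phagocyte values had an unadjusted p under 0.05. Ctsd passed there without day 14 replicate 1 (-0.80, adjusted p = 0.00511). Phagocytes with microglial markers held 8297 and 7412 of Ctss on day 14, against 5385 and 5561 on day 5, a rise of 0.69 ± 0.16 (edgeR adjusted p = 0.0019), the 1 call of 8 beside 13.4% of genes. Those without markers fell in Ctsd by 0.70 ± 0.17 (adjusted p = 0.026), the 1 call of 8 beside 11.6% of genes. The Ctss call was lost without day 5 replicate 1 (0.66) or replicate 2 (0.69), and the Ctsd call without day 14 replicate 2 (-0.57).

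Dendritic cells fell in Ctsd on day 14, to a level below that of T cells. Ctsd stood at 424 and 441 CPM on day 14 in cDC2, against 1111 and 1074 on day 5, at 415 and 356 in cDC1, against 1490.3 and 1099, and at 697 and 609 in Ccr7-positive cells, against 2052 and 1423. T cells held 931 and 1030.0 on day 14, with 1327 and 1455 on day 5. The level in these dendritic cells on day 14 was below that in T cells, which had fewer UMIs per cell: median UMIs per cell were 4984 and 5190.0 in cDC2 and 2123 and 2388 in T cells on day 14. Per UMI of the macrophage genes C1qa, C1qb and C1qc, cDC2 held 0.52 and 0.68 Ctsd UMIs on day 14, with 0.68 and 0.57 on day 5, and T cells 0.68 and 0.70 on day 14, with 0.55 and 0.76 on day 5. The part of free RNA in Ctsd of these dendritic cells was not tested. Ctsl in cDC2 stood at 0.108 and 0.128 per C1q UMI on day 14 and 0.104 and 0.0850 on day 5. T cells held between 0.0738 and 0.0936 of Ctsl. Ctsa was at 0.0579 to 0.0921 per C1q UMI in cDC1 and 0.0233 to 0.0653 in Ccr7-positive cells. This was within or near the 0.0462 to 0.0833 of T cells, and the part of free RNA was not tested there either.

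Ctsa in cDC2 stood well above its level in T cells. It held 273 and 262 CPM on day 14, against 547 and 512 on day 5, where T cells held 113 and 122 on day 14, with 111 and 129 on day 5. Per C1q UMI, cDC2 had 0.333 and 0.402 on day 14, with 0.335 and 0.273 on day 5, and T cells 0.0828 and 0.0833 on day 14, with 0.0462 and 0.0671 on day 5. Ctsb in cDC2, at 582 and 630.2 CPM on day 14, with 1042 and 967 on day 5, was closer to T cells in level. T cells held 506 and 629 on day 14, with 659 and 695 on day 5. Per C1q UMI, Ctsb in cDC2 lay above T cells, at 0.710 and 0.969 on day 14, with 0.638 and 0.516 on day 5. T cells held 0.372 and 0.430 on day 14, with 0.273 and 0.362 on day 5. By edgeR cDC2 fell in Ctsd (-1.31 ± 0.10, adjusted p = 9.8e-05), Ctsa (-0.97 ± 0.12, adjusted p = 0.0015), Ctsl (-0.92 ± 0.18, adjusted p = 0.015) and Ctsb (-0.71 ± 0.11, adjusted p = 0.0038), 4 of 8 members beside 4.85% of genes. The Ctsl call was lost without day 5 replicate 1 (-0.86). C1q genes and microglial markers fell alike in cDC2, with 819 and 650.5 CPM of C1q on day 14 against 1635 and 1875 on day 5, and 160.0 and 114 of microglial markers against 346 and 412; their part in the falls was not tested. Per C1q UMI none of these 4 members was lower in both day 14 libraries than in both day 5 libraries. Ctsb and Ctsl were higher in both, and Ctsa and Ctsd overlapped.

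The other dendritic subsets gave fewer calls. cDC1 fell in Ctsd (-1.75 ± 0.18, edgeR adjusted p = 0.0011) and Ctsb (-1.11 ± 0.23, adjusted p = 0.042), 2 of 8 beside 2.02% of genes. C1q in cDC1 stood at 697 and 906 CPM on day 14, against 2270.0 and 2002 on day 5, and microglial markers at 126 and 111, against 434 and 423. Per C1q UMI, Ctsb stood at 0.518 and 0.665 in cDC1 on day 14, with 0.528 and 0.457 on day 5, where T cells held 0.273 to 0.430. The part of free RNA in the Ctsd and Ctsb calls of cDC1 was not tested. The Ctsd call was lost without day 14 replicate 1 (-1.84) or replicate 2 (-1.59), and the Ctsb call without either day 14 library (-0.79 for replicate 1, -1.50 for replicate 2) or day 5 replicate 1 (-0.86). Ccr7-positive cells fell in Ctsd (-1.39 ± 0.20, adjusted p = 0.021), 1 of 8 beside 0.723% of genes. That call was lost without day 14 replicate 1 (-1.49) or either day 5 library (-1.02 for replicate 1, -1.58 for replicate 2). Per C1q UMI, Ctsd in Ccr7-positive cells stood at 0.706 and 0.517 on day 14, against 0.815 and 0.806 on day 5. In plasmacytoid dendritic cells 0 of 8 members were called beside 1.58% of genes, with Ctsd at -0.79 ± 0.21 (edgeR adjusted p = 0.12), Ctsb and Ctsd at an unadjusted p under 0.05, and 0 called by DESeq2. Ctss, the most abundant member in cDC2, did not pass in cDC2 (-0.15 ± 0.09, but -0.27 with edgeR adjusted p = 0.0177 without day 14 replicate 2), cDC1 (-0.23 ± 0.15), Ccr7-positive (-0.45 ± 0.17) or plasmacytoid cells (0.08 ± 0.16).

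**Figure D4:**
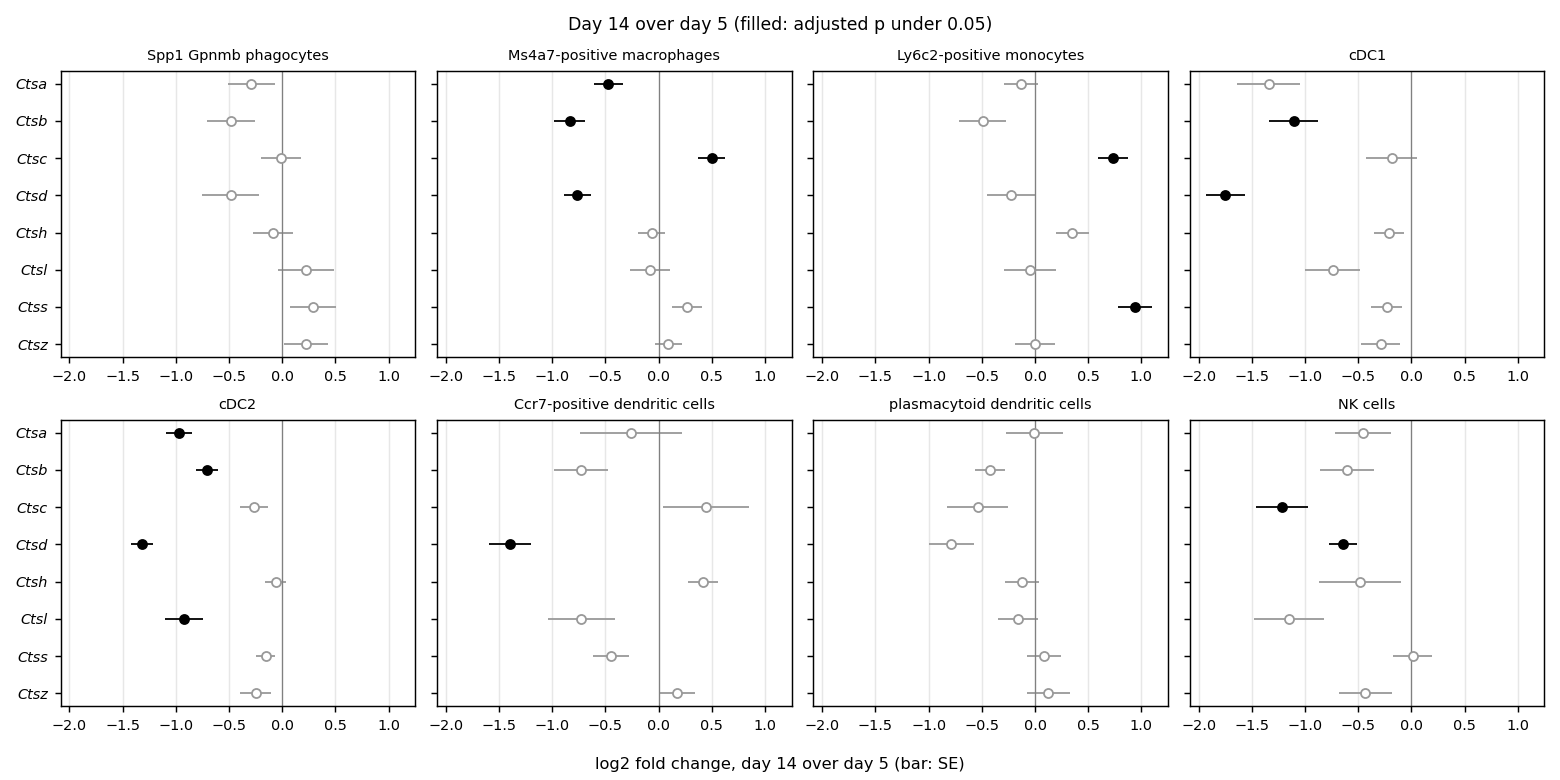
Log2 fold change of 8 cathepsins, day 14 over day 5, in 8 populations with 20 or more cells in every library, with SE bars; filled points have an edgeR adjusted p under 0.05. Ms4a7-positive macrophages and cDC2 have 4 filled points each and Spp1 Gpnmb phagocytes and plasmacytoid dendritic cells none.

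**Figure D5:**
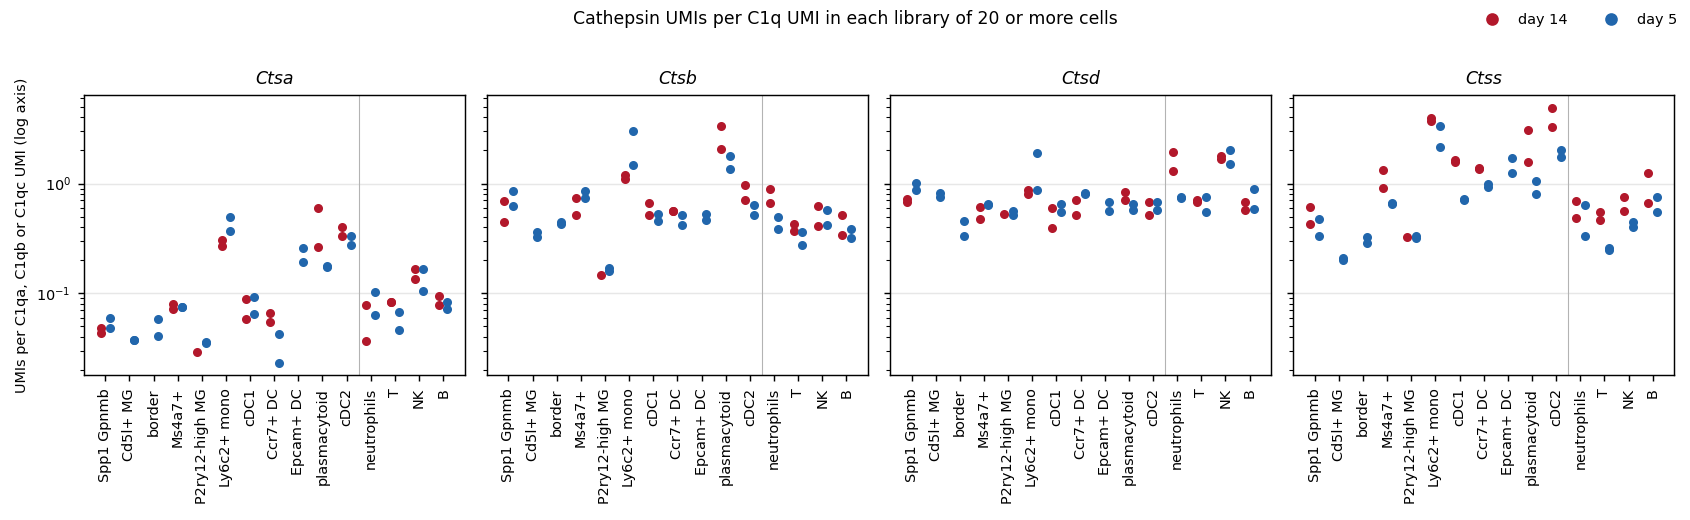
UMIs of Ctsa, Ctsb, Ctsd and Ctss per UMI of C1qa, C1qb or C1qc in each library of 20 or more cells, on a log axis, with day 14 left of day 5. Dendritic cells lie near T cells in Ctsd (0.39 to 0.84 in cDC1, cDC2, Ccr7-positive, Epcam-positive and plasmacytoid cells, with T cells between 0.55 and 0.76), and cDC2 lie above T cells in Ctss.

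Among the other leukocytes, NK cells held 983 and 882 CPM of Ctsd on day 14, against 1577 and 1623 on day 5, and 66.7 and 86.5 of Ctsc, against 191 and 207. Their Ctsd per C1q UMI was 1.66 and 1.78 on day 14, with 2.04 and 1.51 on day 5, above every T cell library. NK cells fell in Ctsc (-1.22 ± 0.25, edgeR adjusted p = 0.011) and Ctsd (-0.65 ± 0.13, adjusted p = 0.011), 2 of 8 beside 4.82% of genes. The Ctsd call was lost without day 5 replicate 2 (-0.62). C1q in NK cells was also lower on day 14, at 591 and 496 CPM, against 773 and 1075 on day 5. Ctsd per C1q UMI overlapped between the days, and the part of free RNA in its fall in NK cells was not tested. Their granzymes, which cathepsin C activates, fell too: Gzma stood at 2386 and 2400.5 on day 14, against 11752 and 9943 on day 5 (-2.05 ± 0.11), and Gzmb at -0.68 ± 0.15. Neutrophils fell in Ctsc (-2.27 ± 0.57, edgeR adjusted p = 0.011), 1 of 8 beside 31.1% of genes, a call lost without day 14 replicate 1 (-2.14) and not made by DESeq2. The day 14 libraries held 2 Ctsc UMIs each, in 27 and 25 neutrophils, against 31 and 91 in 65 and 137 on day 5. Per C1q UMI this was 0.0185 and 0.0312 on day 14, at the 0.0268 to 0.0610 of T cells or below it, against 0.0660 and 0.152 on day 5. No member was called in T cells, beside 1.43% of genes, or B cells, beside 1.88%, by edgeR or DESeq2; at an unadjusted p under 0.05 these were Ctsd and Ctss in T cells and 0 in B cells.

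Over the 11 comparisons of days planned at 20 or more cells, 16 of 88 member tests passed, 3 higher and 13 lower on day 14, beside 0.723% to 31.1% of all genes in the single comparisons. Over the 10 comparisons of populations 51 of 80 passed, beside 5.09% to 42.4% of all genes. Ctsd was called lower on day 14 in 5 populations: cDC1, cDC2, Ccr7-positive cells, Ms4a7-positive macrophages and NK cells. In these dendritic cells its CPM on day 14 lay below that of T cells. In NK cells its days overlapped per C1q UMI. The part of free RNA in the dendritic and NK falls was not tested. Ctsb was called in 3 and Ctsa in 2, while Ctsh and Ctsz were called in none.

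Ctsk, a collagen-degrading protease best known from osteoclasts, was too low to pass the filter on low counts in any comparison. Spp1 Gpnmb phagocytes held 2 and 70 Ctsk UMIs in day 14 replicates 1 and 2 and 9 and 0 in day 5 replicates 1 and 2, which is 5.55, 70.2, 21.1 and 0 CPM. The 1 library of day 14 replicate 2 thus carried most of them, in 177 cells. Its phagocytes without microglial markers held 102 CPM, and those with markers none in any library. Border-associated macrophages of day 14 replicate 2 held 4 UMIs in 7 cells. Fitted without the filter, Ctsk was called higher on day 14 in all Spp1 Gpnmb phagocytes (log2 1.95 ± 0.48, edgeR adjusted p = 0.0028), although day 14 replicate 1 lay below day 5 replicate 1. It was also called higher in phagocytes than in P2ry12-high microglia (edgeR adjusted p = 0.035).

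Of 5 other cathepsins, Ctsf was found in P2ry12-high microglia, with 174, 144, 232 and 267 CPM in day 14 replicates 1 and 2 and day 5 replicates 1 and 2. It was lower in Cd5l-positive microglia (-1.37 ± 0.15), Spp1 Gpnmb phagocytes (-3.01 ± 0.29) and Ms4a7-positive macrophages (-4.84 ± 0.26), each by edgeR. Ctso was higher in plasmacytoid cells than in cDC2 (2.05 ± 0.31). Ctsw, a lymphocyte protease, reached 848, 679, 794 and 668 in NK cells. Ctsg, a granule protease of neutrophil precursors, stood at 292 in monocytes of day 5 replicate 2 and at most 14.1 in the other 3 libraries, so that its fall in monocytes (-5.31 ± 1.16) rests on that library. Elane (653) and Prtn3 (452) stood highest in that same library.

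Among inhibitors, Cst7 rose on day 14 in microglia, where no cathepsin was called. Cst7, an inhibitor that acts in lysosomes, stood at 707 and 971 CPM in P2ry12-high microglia on day 14, against 267 and 209.5 on day 5 (1.82 ± 0.21, edgeR adjusted p = 2.9e-08, 10-cell minimum). It rose also in Spp1 Gpnmb phagocytes (2.12 ± 0.30) and Ms4a7-positive macrophages (1.88 ± 0.31). Cytotoxic lymphocytes carry Cst7 too, and the sum of 10 lymphocyte markers was higher on day 14 in P2ry12-high microglia, at 67.8 and 36.0 CPM against 1.4 and 4.1 on day 5. In Spp1 Gpnmb phagocytes it was 19.4 and 22.1 on day 14, against 0 and 3.19 on day 5. NK cells themselves held 264 and 285 CPM of Cst7 on day 14. Ms4a7-positive macrophages held 101 and 67.1 on day 14, against 23.2 and 21.6 on day 5. The part of lymphocyte RNA in the Cst7 rises of microglia, phagocytes and macrophages was not tested. Cst3, the secreted cystatin C, was lower than in P2ry12-high microglia in Spp1 Gpnmb phagocytes (-2.16 ± 0.17), Cd5l-positive microglia (-1.20 ± 0.12), border-associated (-2.35 ± 0.11) and Ms4a7-positive macrophages (-3.38 ± 0.14). Cstb, the cytosolic stefin B, was higher in the same 4 (2.76 ± 0.17, 1.63 ± 0.11, 1.68 ± 0.13 and 2.64 ± 0.15). In cDC1 Cst3 was higher than in cDC2 by 2.12 ± 0.06. Of 11 inhibitors, 4 were tested in Spp1 Gpnmb phagocytes over P2ry12-high microglia, 2 higher and 1 lower.

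Legumain fell on day 14 in Ms4a7-positive macrophages. Lgmn stood at 1619.9 and 2059.8 CPM in Ms4a7-positive macrophages on day 14, against 3244 and 2866 on day 5 (-0.69 ± 0.14, edgeR adjusted p = 0.006). It was also called lower in cDC2 (-0.97 ± 0.18), cDC1 (-1.20 ± 0.22) and NK cells (-1.45 ± 0.26), where C1q was lower on day 14 as well, in NK cells at 591 and 496 CPM, against 773 and 1075 on day 5. Per C1q UMI, the days overlapped in cDC2, with 0.244 and 0.463 on day 14 against 0.316 and 0.264 on day 5, and in cDC1, with 0.170 and 0.214 on day 14 against 0.171 and 0.179 on day 5. In NK cells it stood at 0.110 and 0.118 on day 14, against 0.213 and 0.193 on day 5. T cells held 0.0974 to 0.114 over both days. The part of free RNA in the falls of cDC2, cDC1 and NK cells was not tested. C1q was also lower on day 14 in Ms4a7-positive macrophages. Lgmn per C1q UMI was there 0.230 and 0.314 on day 14 and 0.332 and 0.290 on day 5, so the days overlapped. Among 8 listed genes of processing and sorting, Lgmn was the 1 called in each of these 4 populations. None of Tfeb, Tfe3 and Mitf was called between days in any of the populations tested.

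The MHC class II loading genes, whose products cathepsins help to prepare, were also higher on day 14 in monocytes. All 6 of Cd74, H2-Aa, H2-Ab1, H2-Eb1, H2-DMa and H2-DMb1 were higher there by edgeR, beside 6.71% of genes called. Cd74 stood at 10570.1 and 11306 CPM on day 14, against 3946 and 3465 on day 5 (1.70 ± 0.14). Ly6c2, Ccr2 and lymphocyte markers of this gate were higher on day 14 too, as given above. Their part in this result was not tested. In cDC2, 4 of 6 were lower, beside 4.85% of genes called, with Cd74 at -0.37 ± 0.05. In P2ry12-high microglia, with the 10-cell minimum, 3 of 6 were lower, beside 1.06% of genes. In Ms4a7-positive macrophages none of the 6 was called between days, beside 8.23% of genes.

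Detection was also measured at equal depth, with cells of at least 1000 UMIs thinned to 1000 and shallower cells left out. Each share pools the cells of both libraries of a day. On day 14 a Ctsb UMI was found in 96.1% of P2ry12-high microglia, 88.8% of Ms4a7-positive macrophages, 68.1% of Ly6c2-positive monocytes, 40.3% of cDC2 and 31.4% of T cells; on day 5 in 96.2%, 96.8%, 71.9%, 59.0% and 41.4%. A Ctss UMI was found in every P2ry12-high microglial cell of both days, in 98.4%, 96.4%, 92.2% and 33.1% of the other 4 populations on day 14 and in 97.4%, 88.8%, 94.6% and 42.5% on day 5. The shares in T cells, at a median depth of 2219 UMIs on day 14 and 1677 on day 5, stand as the background here. Ctss in T cells went the other way in level, with 634 and 809 CPM on day 14, against 628 and 476 on day 5, so no order is read from its shares there. Ctsd was detected in 30.2% of cDC2 and 44.8% of T cells of day 14. The exact 95% binomial interval for these cDC2, 24.7% to 36.2%, takes cells as independent and leaves out the spread between libraries. Ctsk was found in 6 of 263 phagocytes of day 14 (2.28%) and 0 of 190 of day 5, for which the exact 95% binomial upper bound is 1.92%; this limits detection at 1000 UMIs and not expression. Without thinning Ctsk was found in 29 of 263 phagocytes of day 14 and 4 of 214 of day 5.

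Profiles over 53 sums of population and library were compared by Spearman's rho of log2 levels, as a description; sums of 1 library share its depth and free RNA. The gene most like Ctsb was Ctsl (rho 0.928), and the reverse held. The next were Cd68, a lysosomal membrane glycoprotein, for Ctsb (0.919) and Ctss (0.929), Hexa, a subunit of beta-hexosaminidase, for Ctsa (0.931), and Lamp1, another lysosomal membrane protein, for Ctsz (0.915). Ctsd was most like C1qb (0.893), Ctsc like the Fc receptor gene Fcgr2b (0.876) and Ctsh like the carboxypeptidase gene Scpep1 (0.835). Ctsk reached only 0.598, with Apobec1.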

How the data were processed

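CD45high cells of 4 mouse libraries were sequenced with a 10x 3′ chemistry. The authors deposited UMI counts per gene and barcode, made with Cell Ranger 3.0.1 on mm10, with Seurat 2.3.4 also named, per the submitters' processing notes. Barcodes with fewer than 200 genes or over 10% mitochondrial UMIs were left out (84 in all). Cells were gated by marker UMIs, and no doublet caller was run. Myeloid gates left out cells with over 1 UMI of T, NK and B markers together, or with neutrophil markers at 1% or more of UMIs. Limits on other markers varied with the gate, for example microglial markers under 0.2% of UMIs in monocytes, Ms4a7-positive macrophages and dendritic cells. Counts were summed per population and library (20 or more cells) and tested with edgeR 4.0.16 in R 4.3.3 (quasi-likelihood test, TMM scaling, filterByExpr, Benjamini-Hochberg over all genes tested, threshold 0.05), with library as a block between populations. DESeq2 1.42.0 was an alternative. SE is the log2 fold change over the square root of F. Where a library is left out of 2 against 2, the lone library is assumed to vary like the others. Intervals (95%, exact Poisson or binomial) cover counting error only. Gene lists were named whole; similar genes were the 3 of highest rho. The members, lists and gates were chosen with earlier results of these data known. The tests were checked on simulated counts. Python 3.11.15, numpy 2.4.6, scipy 1.17.1 and pandas 2.3.3 were used.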

Additional observations from a re-analysis of the deposited data

Results flagged for a closer look

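A pair of day effects differed between populations by a test of the difference itself. The day 14 over day 5 change of Ctsc was lower in cDC2 than in Ms4a7-positive macrophages by log2 -0.73 (edgeR adjusted p = 0.040). Ctsc stood at 414 and 352 CPM on day 14, with 454 and 474 on day 5 in cDC2, and at 1347 and 1291 on day 14, with 958 and 957 on day 5 in the macrophages. The change of Ctss was lower in Ms4a7-positive macrophages than in Ly6c2-positive monocytes by log2 -0.69 (edgeR adjusted p = 0.011), a comparison added after seeing the data. Ctss stood at 6448 and 8784 on day 14, with 6515 and 6486 on day 5 in the macrophages, and at 4560.5 and 5271 on day 14, with 3186 and 2461 on day 5 in monocytes.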

How the results depend on the processing

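Between days, 16 member calls became 15 with RLE size factors, 20 without a filter on low counts, 12 with DESeq2, 15 with stricter gates, and 14 to 16 with any 1 library left out. In cells of 1500 or more UMIs 9 of the 11 comparisons could be run, and 15 calls there became 13. Keeping cells with markers of several types gave 35. The replicate block gave 14 calls, and the crossed pairing, added after seeing the data, gave 26. Deviations of same-numbered libraries correlated with r between -0.259 in B cells and 0.00305 in cDC1. With 2 libraries a day these values cannot decide whether libraries are paired, by number or crosswise. Between populations, 51 calls became 51, 52, 38, 51 and 47 under RLE, no filter, DESeq2, stricter gates and mixed cells kept, and 34 with 1 fit over all populations. The 1 called difference of day effects became 2 without the filter, 2 with stricter gates, 2 with mixed cells kept, 0 with DESeq2 and 0 to 4 with a library left out; the cause was not tested.

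Of the directions that turned, 1 was of a result called in the main fit and 20 were of results called only in some alternative. With mixed cells kept, T cells gave Ctsa -1.47, Ctsc -1.45, Ctsh -1.95 and Ctss -1.42 between days, and NK cells gave Ctss -0.96. In the same setting plasmacytoid cells over cDC2 gave Ctsa 0.31 and Ctss 0.066. That Ctss value is the 1 result called in the main fit that turned. Stricter gates gave 0.055 for Ctsd in Ly6c2-positive monocytes and 0.18 for Ctsh in NK cells. For plasmacytoid cells over cDC2, no filter gave Ctsd -0.13 and Ctsz -0.11, the day 5 libraries alone gave Ctsd -0.25 and Ctsz -0.20, and the day 14 libraries alone gave Ctsa 0.039. The day 14 libraries alone gave -0.12 for Ctsd in cDC1 over cDC2. With 1 library left out, Ctsd ranged between -0.60 and 0.29 in Ly6c2-positive monocytes, -1.32 and 0.014 in B cells, -0.035 and 0.23 in cDC1 over cDC2, and -0.16 and 0.14 in plasmacytoid cells over cDC2. Ctsl in T cells ranged between -0.49 and 0.0020 and Ctsb in B cells between -0.62 and 0.44. The cause was not tested.

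Depth set the share of myeloid cells with a UMI. Thinned to 2000 UMIs and not thinned, the shares were 58.0% and 75.3% for Ctsa, 60.6% and 76.0% for Ctsc, 82.0% and 92.6% for Ctsh, 0.690% and 1.06% for Ctsk, 97.5% and 99.5% for Ctss, and 84.5% and 95.8% for Ctsz. Not thinned, they were 95.9% for Ctsb, 90.4% for Ctsd and 64.0% for Ctsl. At 1000 UMIs they were 39.5%, 43.4%, 61.3%, 0.224%, 92.1% and 69.1% for Ctsa, Ctsc, Ctsh, Ctsk, Ctss and Ctsz. Differences of day effects with P2ry12-high microglia at 20 cells were not run, since day 14 replicate 2 held 15 such cells.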
